A study of Mus musculus with 12 samples.

Results

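Neighboring cells of the colonic epithelium are joined by tight junctions, adherens junctions and desmosomes, and 38 genes of these structures were followed in colonic epithelial cells with and without the transcription factor TFEB. They were picked by gene symbol and known role, with earlier results of these data known, from the 47632 genes of the deposited tables. The set holds 9 claudins, 10 other tight junction genes, 10 adherens junction genes (with *Cdh17* and *Epcam* placed among them) and 9 genes of desmosomes and hemidesmosomes. Of these, 37 were found under their own symbol. *Afdn* was listed under its older symbol *Mllt4* and was joined by Ensembl identifier.

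Tight junctions seal the space between cells near the apical surface. Their strands are built by claudins, some of which close the gap and some of which form channels for small ions, while occludin and related proteins with a MARVEL domain sit in the same strands and ZO proteins anchor them to actin. Adherens junctions lie below, where E-cadherin binds its counterpart on the next cell and is tied to actin through catenins. Desmosomes join keratin filaments across cells through desmogleins and desmocollins, which are held in a plaque of plakoglobin, plakophilins and desmoplakin, and hemidesmosomes attach the basal surface through the α6β4 integrin.

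The cells came from C57/BL6 mice. In *Tfeb* ΔIEC animals, Cre expressed from the villin promoter deletes a floxed *Tfeb* gene in the intestinal epithelium, and the *Tfeb* flox/flox controls carry the floxed gene without Cre. Cells were released with EDTA from the colon on Day 0 (untreated), Day 4 and Day 11 of an experiment in which dextran sodium sulfate (DSS, 2.5% by the labels and slightly less by the study's methods), a chemical that injures the colonic epithelium, was followed by recovery on water. Each of the 6 groups had 2 animals, 12 in all, aged 10 and 12 weeks on Day 0, 12 weeks on Day 4 and 10 weeks on Day 11. Every expression value is the authors' single FPKM (fragments per kilobase of transcript length, adjusted for library size) for both animals of a group, so it has no error and the depth behind it is unknown. The authors' own test of the genotypes was not used, and the pooled values allow no other test, so no difference below was tested. A log2 fold change compares *Tfeb* ΔIEC with *Tfeb* flox/flox after addition of 1 FPKM to each, a scale that understates the change where FPKM is low. A gene passed the filter on low values with at least 1 FPKM in either genotype and is called higher or lower at 2-fold or more on that scale. In bulk cells, fewer cells of a type and less RNA per cell cannot be told apart.

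Several facts about the groups precede the results. *Tfeb* itself had 0.901 FPKM in controls and 0.185 FPKM after deletion on Day 0, while on Days 4 and 11 the deleted animals were listed at 0 and the controls at 1.08 and 1.18 FPKM. The values of Days 4 and 11 lay very close together although the labels give different animals. Of genes above 0 on both days, identical values were found for 14.3% in the controls and 10.2% in *Tfeb* ΔIEC animals, whereas there were 0 between Days 0 and 4. Among the 37 junction genes above 0, the ratio of Day 11 to Day 4 lay within 1.2-fold for 32 in controls and for 34 in *Tfeb* ΔIEC animals, against 11 and 6 between Days 0 and 4. Day 11 values are therefore given beside those of Day 4 and are no independent support for them. The tables of the 3 days were normalized separately, so levels on different days are set side by side only. Between 7469 and 8727 genes reached 1 FPKM in a group. The summed FPKM was 975316 and 973878 in the control and *Tfeb* ΔIEC groups on Day 0, but 1464717 and 820344 on Day 4.

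The epithelial identity of the cells was visible in the junction genes themselves, since *Epcam*, the epithelial cell adhesion molecule, had 1109 to 2018 FPKM in the 6 groups. Of 12 stromal and endothelial markers, 5 to 10 were listed at 0 in a group, with *Des* and *Myh11* at 0 throughout, and their summed FPKM was 2.44 to 6.03. Squamous epithelium, which uses many desmosomal genes, was represented by 12 markers with a summed FPKM of 10.5 to 31.7, of which 9 to 11 were at 0 in a group. *Krt5*, *Krt13*, *Krt4*, *Trp63*, *Dsg3* and *Dsg1a* were at 0 in every group, *Krt14* was at 0 to 0.903 FPKM and *Sprr1a* at 0 to 6.08 FPKM, and *Serpinb5* had 13.8 FPKM in controls and 25.3 FPKM in *Tfeb* ΔIEC animals on Day 4. The 14 immune markers summed to 52.2 FPKM in controls and 25.7 FPKM in *Tfeb* ΔIEC animals on Day 0, and to 34.6 and 184 FPKM on Day 4. *Cd74* supplied most of the latter sum, with 20.5 FPKM in controls and 165 FPKM in *Tfeb* ΔIEC animals. The small intestinal genes *Lct* and *Apoa4* were at 0 in every group, and the 8 markers of that list summed to 819 to 1909.8 FPKM, mostly from *Fabp2*.

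Before DSS, most junction genes differed by less than 2-fold between the genotypes, and 5 of the 9 that did differ were adherens junction genes. Of the 33 junction genes that passed the filter on Day 0, 8 were higher in *Tfeb* ΔIEC animals by 2-fold or more and 1, *Tjp1*, was lower. Across all 9993 genes that passed, 13.5% were higher and 16.1% were lower. The 8 higher genes were *Cldn8*, *Ocln*, *Cdh1*, *Cdh17*, *Ctnna1*, *Ctnnd1*, *Vcl* and *Dsc2*, of which *Vcl*, at 0.935 FPKM in controls, passed only through *Tfeb* ΔIEC animals. Adherens junction genes supplied 5 of the 8 higher genes, out of 10 measured. Their median log2 fold change was 1.01, compared with -0.15 for 8 claudins, -0.05 for 8 other tight junction genes, 0.28 for 7 desmosomal genes and 0.06 for all genes. These differences between gene groups were not tested.

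On Day 4, claudins stood beside adherens junction genes among those that differed. Of 34 junction genes that passed, 16 were higher in *Tfeb* ΔIEC animals, 2 were lower (*Cldn3* and *Marveld3*) and 16 differed by less than 2-fold. The higher share was 47.1%, where 25.6% of all 9371 genes were higher, and the lower share was 5.88%, where 26.1% of all genes were lower. Among the higher genes, *Cldn4*, *Cldn8*, *Cldn12*, *Ocln*, *Marveld2* and *Tjp1* had only 0.363 to 0.832 FPKM in controls. They passed the filter only through the *Tfeb* ΔIEC group, where they were high. With a filter at 10 FPKM, 10 of 20 junction genes were higher, where 26.8% of all genes were. By structure, 5 of 8 claudins, 4 of 9 other tight junction genes, 6 of 10 adherens junction genes and 1 of 7 desmosomal genes were higher. The median log2 fold change over the junction genes was 0.95, against 0.06 for all genes. On Day 11, 18 of 34 junction genes were higher and 2 were lower, where 26.1% of 9365 genes were higher and 25.7% lower, and the same 16 genes as on Day 4 were joined by *Dsg2* and *Pkp3*. Altogether 20 genes reached 2-fold on at least 1 day (*Dsg2* and *Pkp3* on Day 11 only), 13 passed on all days without reaching it, and 4 (*Cldn1*, *Pard6b*, *Ppl* and *Evpl*) were under 1 FPKM in all groups. *Pard3*, a polarity protein with 0.258 to 1.63 FPKM, passed only on Days 4 and 11 and differed by less than 2-fold there, and its partner *Pard6b* had 0.123 to 0.603 FPKM.

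**Figure D1:**
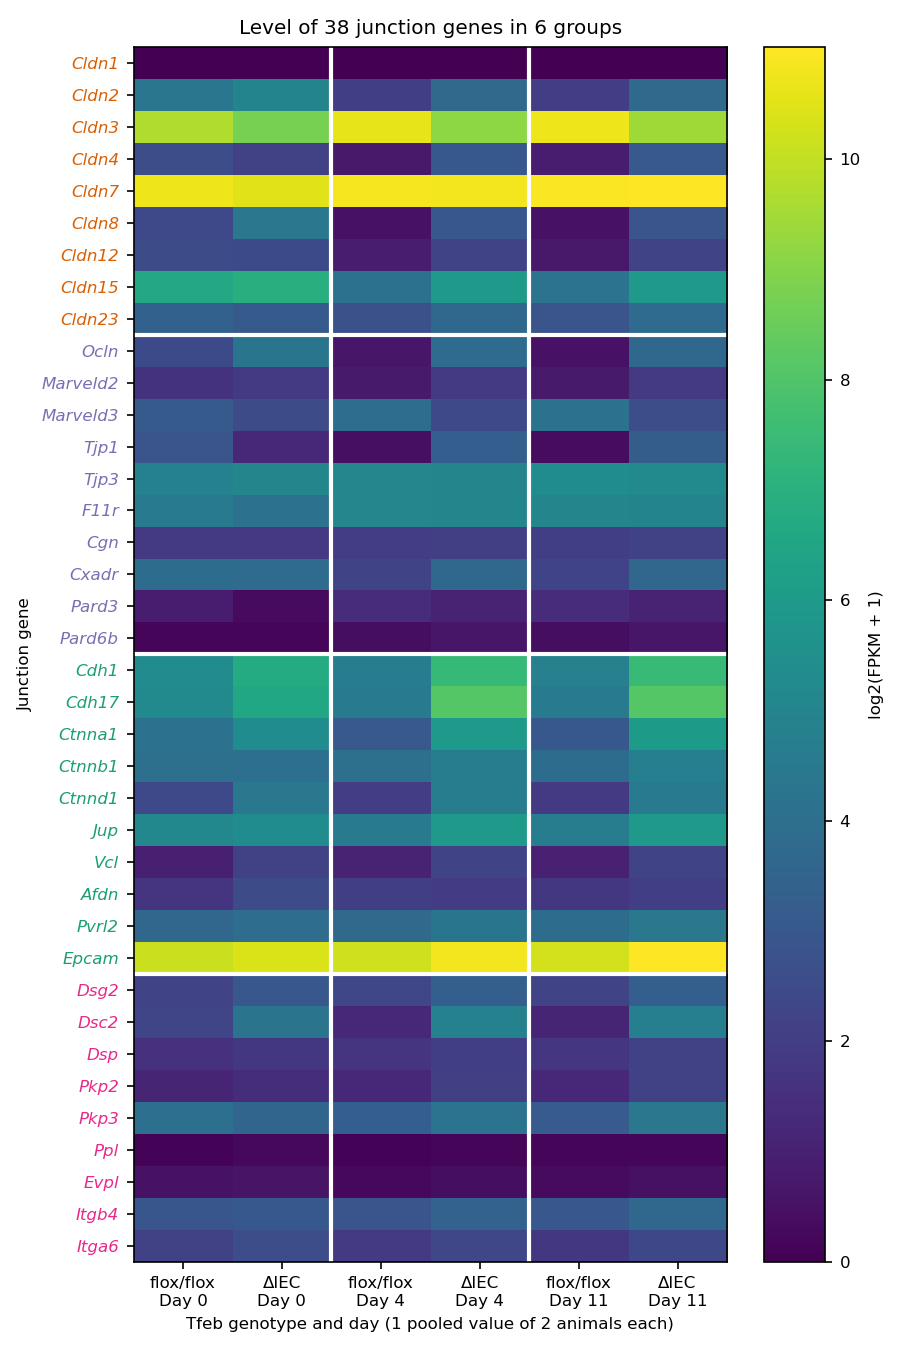
Heat map of the 38 junction genes (rows, colored by structure) in the 6 groups (columns, 1 pooled value of 2 animals each), where color gives log2(FPKM + 1). *Cldn3*, *Cldn7* and *Epcam* are the brightest rows, and *Ocln*, *Cldn8* and *Tjp1* are dark in *Tfeb* flox/flox animals on Days 4 and 11.

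**Figure D2:**
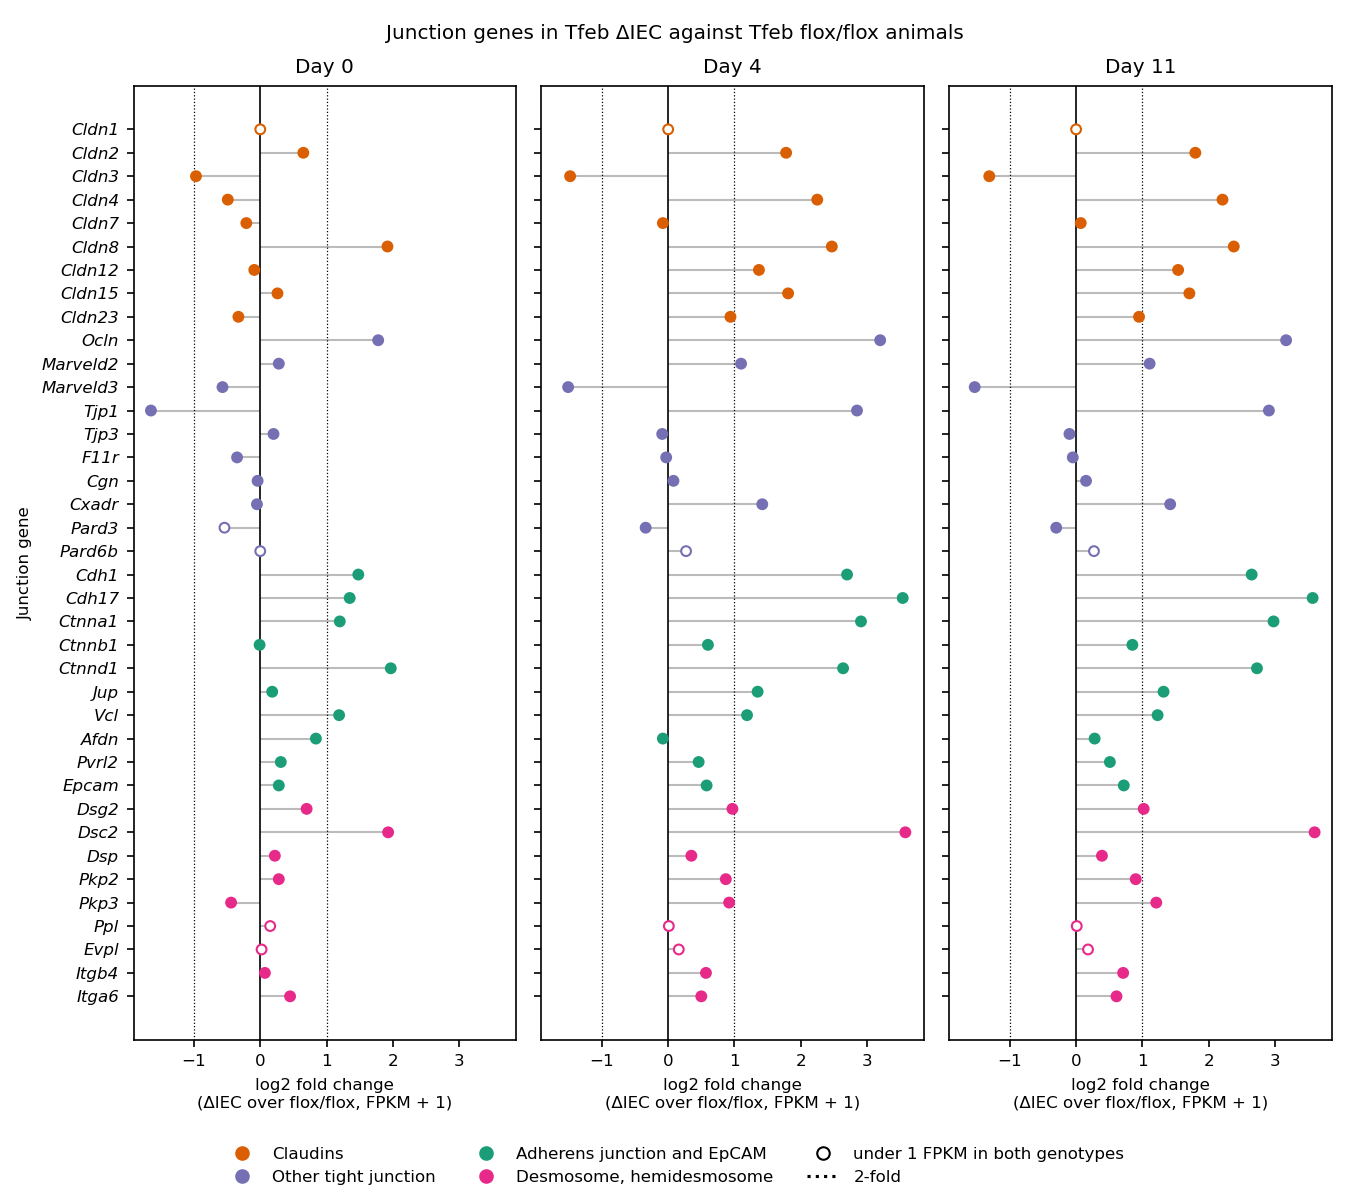
Log2 fold change of *Tfeb* ΔIEC over *Tfeb* flox/flox animals (x axis, after adding 1 FPKM) for each junction gene (y axis) on Days 0, 4 and 11, with dotted lines at 2-fold and open points for genes under 1 FPKM in both genotypes. On Day 4, 16 genes lie right of the right-hand line and *Cldn3* and *Marveld3* lie left of the left-hand line, while *Tjp1* is left on Day 0 and right afterwards.

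The junction genes have long transcripts, and the Day 4 difference moved with transcript length over all genes. Their median length was 3205 nt, compared with 1894 nt for all genes that passed on Day 4, and it was 1876 nt for claudins, 2802 nt for other tight junction genes, 3554 nt for adherens junction genes and 4569 nt for desmosomal genes. When all genes were put into 10 length classes of equal number, the shortest class, from 38 to 485 nt, had a Day 4 median log2 fold change of -1.89, and 19.6% of genes were higher. Between 2326 and 4472 nt lie the classes that hold 6, 6 and 7 of the junction genes. There, 35.9% to 37.6% of all genes were higher and the class medians were 0.61 to 0.65. The longest class, with 7 junction genes, had 26.3% higher and a median of 0.37. From 1515 to 1894.5 nt, with 6 junction genes, 22.8% were higher and the median was 0.19. Classes from 789 to 1515 nt held 1 junction gene each, with 10.5% and 19.1% of all genes higher. After subtraction of the running median over length, 12 junction genes were higher on Day 4, where 20.3% of all genes were higher, and the junction median was 0.48. The same step left 5 of the 8 higher genes on Day 0, where 11.6% of all genes were higher, and the 3 it removed (*Cdh17*, *Ctnna1* and *Vcl*) were all adherens junction genes, so that 2 of 10 remained in that group. The part of length in any single difference was not tested.

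**Figure D3:**
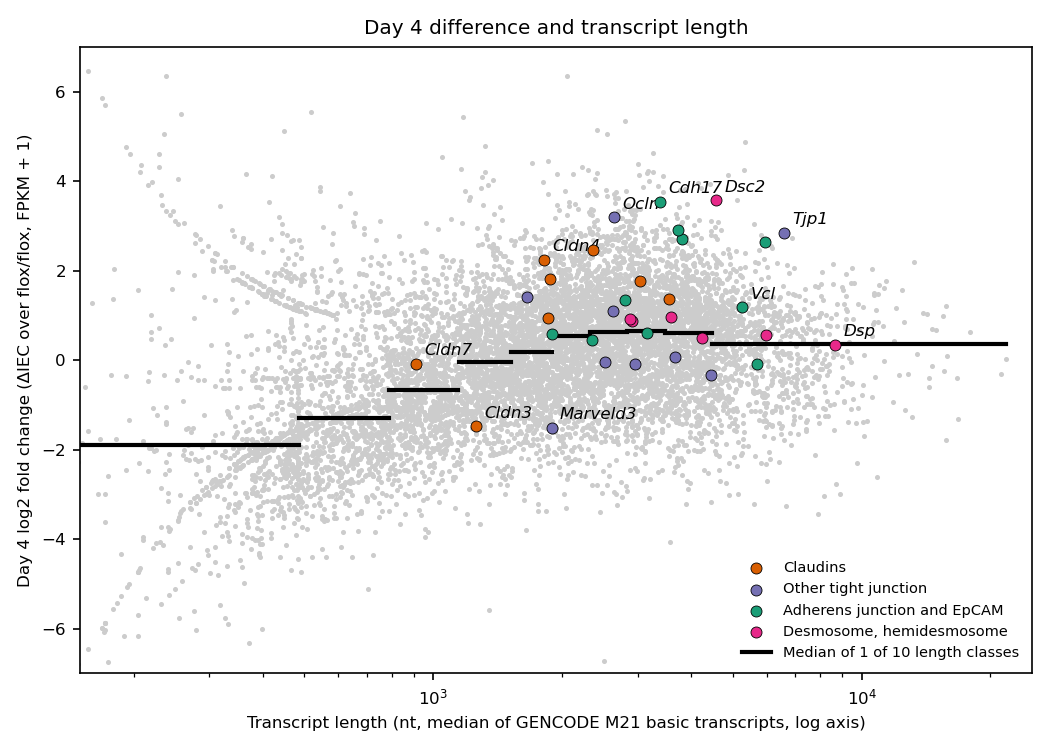
Day 4 log2 fold change (y axis) against transcript length (x axis, log scale, nt) for all genes that passed (gray) and for the junction genes (colored by structure), with black bars at the medians of 10 length classes of all genes, and a few genes beyond the axis ranges not drawn. The bars climb from -1.89 among the shortest genes to 0.65 and fall to 0.37 among the longest, and *Dsc2*, *Cdh17*, *Ocln* and *Tjp1* lie well above the bars.

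Among claudins, the abundant *Cldn3* and *Cldn7* did not share the direction of the scarcer members on Day 4 as deposited. *Cldn3*, which seals the strand, was lower in *Tfeb* ΔIEC animals, *Cldn7* was at -0.08 on the log2 scale, and *Cldn2*, *Cldn4*, *Cldn8*, *Cldn12* and *Cldn15* were higher. The 9 claudins together had 2663 FPKM in controls and 2070.0 FPKM in *Tfeb* ΔIEC animals on Day 0, 3489 and 2454 FPKM on Day 4, and 3701 and 2864 FPKM on Day 11. *Cldn3* and *Cldn7* made up 94.6% of that sum in controls and 91.1% after deletion of *Tfeb* on Day 0, 99.2% and 95.7% on Day 4, and 99.2% and 96.4% on Day 11. The channel-forming pair *Cldn2* and *Cldn15* made up 4.45% of the sum in controls and 7.23% after deletion of *Tfeb* on Day 0, 0.572% and 3.05% on Day 4, and 0.547% and 2.50% on Day 11. The share of the pair was larger in *Tfeb* ΔIEC animals on each day as deposited, with no error available for it. The pair has longer transcripts than *Cldn3* and *Cldn7*, and after subtraction of the length trend the gap between the log2 fold changes of *Cldn15* and *Cldn7* narrowed on Day 4, from 1.81 against -0.08 to 1.43 against 0.57. On Day 0 their order turned, from 0.26 against -0.21 to 0.09 against 0.21. *Cldn2* and *Cldn3* kept their order on Day 0, at 0.39 and -0.89 after the same step.

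*Cldn3* had 836 FPKM in *Tfeb* flox/flox and 427 FPKM in *Tfeb* ΔIEC animals on Day 0, 1573 and 562 FPKM on Day 4, and 1702 and 688 FPKM on Day 11. The control value was the higher of the pair on each day, and the log2 fold change was -0.97, -1.48 and -1.31. Its rank hardly moved, at percentile 98.7 to 99.0 of the genes above 0 in every group. The Day 4 call depends on the processing. It was lost after each group was divided by its sum (-0.65, where the median of all genes was 0.75) and when compared with genes of similar mean level (0.19). It held after subtraction of the length trend (-1.40), centring on the median of all genes (-1.54) or a pseudocount of 5 (-1.48). On Day 11, division by the sum gave -0.47, where the median of all genes was 0.76, and comparison by mean level gave 0.33. *Cldn7*, which is found along the lateral membrane as well as in the junction, had 1685 and 1458 FPKM on Day 0, 1888 and 1787 FPKM on Day 4, and 1971 and 2073 FPKM on Day 11. It has the shortest transcript of the set, 913 nt, and its log2 fold change was -0.08 on Day 4 and 0.07 on Day 11, but 0.57 and 0.69 after subtraction of the length trend. Its FPKM was 2.02 times that of *Cldn3* in controls and 3.41 times after deletion of *Tfeb* on Day 0, and 1.20 and 3.18 times on Day 4.

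*Cldn4*, a sealing claudin, had 5.08 FPKM in controls and 3.33 FPKM in *Tfeb* ΔIEC animals on Day 0, 0.707 and 7.13 FPKM on Day 4, and 0.803 and 7.33 FPKM on Day 11. The order of the genotypes on Days 4 and 11 was the opposite of that on Day 0, and the log2 fold change was -0.49, 2.25 and 2.21. *Cldn3* and *Cldn4* are single-exon genes on chromosome 5 of mm10, the former on the plus strand from 134986214 to 134987472 and the latter on the minus strand from 134945119 to 134946934, with 39279 bases between them. As deposited, the neighbors stood in opposite directions on Day 4, but against genes of similar mean level both were above 0, *Cldn3* at 0.19 and *Cldn4* at 2.11. Their upstream sequences are shown as those of neighbors with unlike values. Each is the 250 bases before a RefSeq start site (GRCm38.p6), written along the gene's own strand, at chr5:134985964-134986213 (plus) for *Cldn3* and chr5:134946935-134947184 (minus) for *Cldn4*. They hold no CACGTG, the letters of the E-box that TFEB is known to bind, and are printed without capitals. The absence says only that these letters are not in the window.
Cldn3: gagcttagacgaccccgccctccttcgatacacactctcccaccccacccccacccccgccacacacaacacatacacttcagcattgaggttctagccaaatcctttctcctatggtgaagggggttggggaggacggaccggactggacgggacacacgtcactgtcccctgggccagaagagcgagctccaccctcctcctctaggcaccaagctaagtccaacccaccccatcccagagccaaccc
Cldn4: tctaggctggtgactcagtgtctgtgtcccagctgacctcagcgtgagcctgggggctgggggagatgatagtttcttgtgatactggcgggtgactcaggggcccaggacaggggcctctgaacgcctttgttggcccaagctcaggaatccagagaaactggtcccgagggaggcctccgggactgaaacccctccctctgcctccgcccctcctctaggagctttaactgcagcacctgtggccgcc

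*Cldn8*, which in colon contributes to the barrier against sodium, was higher in *Tfeb* ΔIEC animals on all 3 days. It had 4.43 FPKM in controls and 19.6 FPKM in *Tfeb* ΔIEC animals on Day 0, 0.437 and 6.93 FPKM on Day 4, and 0.437 and 6.49 FPKM on Day 11, where its control value was the 1 junction value above 0 that was identical on Days 4 and 11. The log2 fold change was 1.92, 2.47 and 2.38. Within the controls the gene stood at percentile 66.6 on Day 0 and 20.6 on Day 4, and within *Tfeb* ΔIEC animals at 87.2 and 75.6. *Cldn12* had 4.97 and 4.59 FPKM on Day 0, 0.832 and 3.75 FPKM on Day 4, and 0.674 and 3.85 FPKM on Day 11. It was called higher on both later days, with log2 fold changes of 1.37 and 1.54, but after subtraction of the length trend the values were 0.79 and 0.96 and the calls ended.

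*Cldn2*, a claudin of crypt cells that forms a channel for sodium and water, had 19.2 FPKM in controls and 30.7 FPKM in *Tfeb* ΔIEC animals on Day 0. The pair of values was 3.09 and 13.1 FPKM on Day 4, and 3.02 and 13.0 FPKM on Day 11. The log2 fold change was 0.65 on Day 0, under 2-fold, and 1.78 and 1.80 afterwards. Set side by side, the Day 4 values lay below those of Day 0 in both genotypes, and the gene stood at percentile 86.6 and then 60.0 in controls against 90.8 and then 83.5 in *Tfeb* ΔIEC animals. *Cldn15*, the other channel-forming claudin, had 99.2 and 119 FPKM on Day 0, 16.9 and 61.7 FPKM on Day 4, and 17.2 and 58.7 FPKM on Day 11. It followed the same order as *Cldn2*, with log2 fold changes of 0.26, 1.81 and 1.71. *Cldn23* stayed just inside the threshold, with 5.64 to 13.6 FPKM and log2 fold changes of -0.33, 0.94 and 0.95, and *Cldn1* was listed at 0 in every group. Claudin shares moved by at most 0.1 percentage points when all 33 claudins of the tables were counted.

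**Figure D4:**
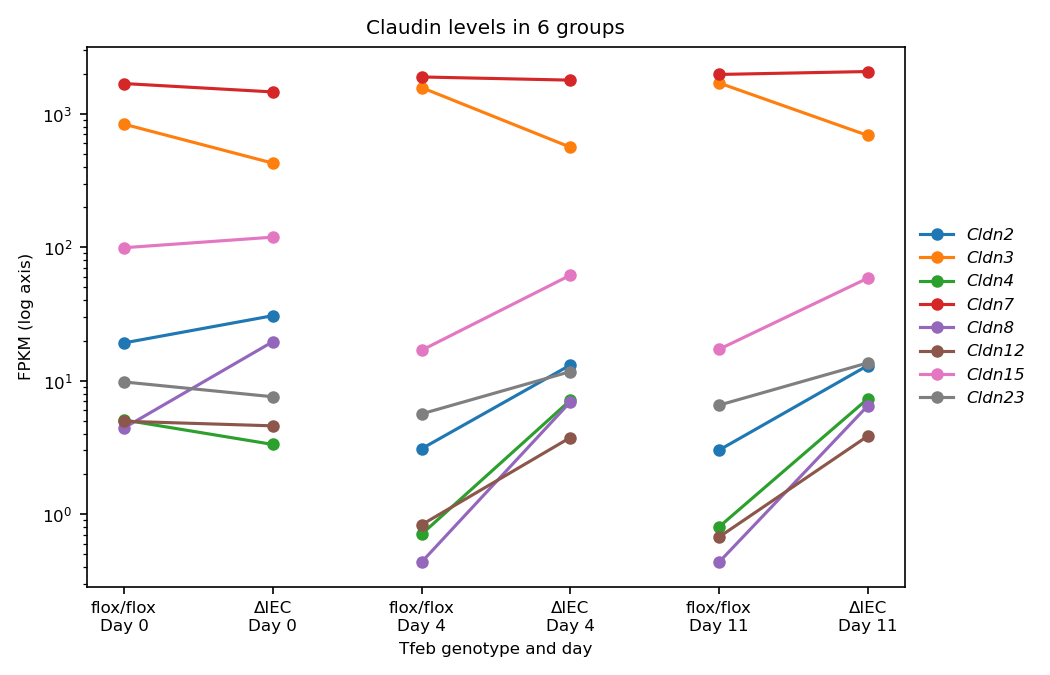
FPKM of 8 claudins (y axis, log scale) in the 6 groups (x axis), with a line joining the genotypes of each day and *Cldn1*, at 0 throughout, left out. On Day 4 the lines of *Cldn2*, *Cldn4*, *Cldn8*, *Cldn12* and *Cldn15* climb from control to *Tfeb* ΔIEC animals, that of *Cldn3* falls from 1573 to 562 FPKM, and that of *Cldn7* is nearly flat.

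The other tight junction genes showed no common direction. On Day 4, *Ocln*, *Marveld2*, *Tjp1* and *Cxadr* were higher in *Tfeb* ΔIEC animals, *Marveld3* was lower, and *Tjp3*, *F11r*, *Cgn* and *Pard3* lay between -0.34 and 0.08 on the log2 scale. Their median was 0.08, and it was -0.51 after subtraction of the length trend, so its sign depends on that step. *Ocln*, which encodes occludin, had 4.62 FPKM in controls and 18.3 FPKM in *Tfeb* ΔIEC animals on Day 0, 0.565 and 13.4 FPKM on Day 4, and 0.470 and 12.2 FPKM on Day 11. The *Tfeb* ΔIEC value was 3.97 times the control value on Day 0 and 23.8 times on Day 4, and the log2 fold change was 1.78, 3.20 and 3.17. In controls occludin stood at percentile 67.4 on Day 0 and 25.1 on Day 4, while in *Tfeb* ΔIEC animals it stood at 86.6 and 83.8.

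The related MARVEL proteins differed from each other. *Marveld2*, also called tricellulin, which seals the corners where 3 cells meet, had 2.04 and 2.70 FPKM on Day 0, 0.724 and 2.70 FPKM on Day 4, and 0.718 and 2.71 FPKM on Day 11. It was called higher on Days 4 and 11, with log2 fold changes of 1.10 and 1.11, and these were 0.41 and 0.39 after subtraction of the length trend. *Marveld3* had 7.62 and 4.80 FPKM on Day 0, 14.4 and 4.40 FPKM on Day 4, and 16.7 and 5.11 FPKM on Day 11. The control value was the higher one on each day, with log2 fold changes of -0.57, -1.51 and -1.53. Division of each group by its sum brought the later values to -0.77 and -0.78, under 2-fold, where the medians of all genes were 0.75 and 0.76.

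Among the scaffold proteins, *Tjp1* (ZO-1) was the single junction gene called in opposite directions on different days. It had 6.55 FPKM in controls and 1.41 FPKM in *Tfeb* ΔIEC animals on Day 0, 0.363 and 8.84 FPKM on Day 4, and 0.283 and 8.62 FPKM on Day 11. The control value was 4.64 times the *Tfeb* ΔIEC value on Day 0, and the *Tfeb* ΔIEC value was 24.4 times the control value on Day 4. On the log2 scale the difference was -1.65, 2.85 and 2.91. In rank, *Tjp1* stood at percentile 73.2 in controls and 41.2 after deletion of *Tfeb* on Day 0, and at 17.5 and 79.0 on Day 4. With 5 FPKM added in place of 1, the Day 0 difference was -0.85 and no longer reached 2-fold. *Tjp3* (ZO-3), by contrast, had 27.8 and 32.1 FPKM on Day 0, 33.1 and 31.0 FPKM on Day 4, and 39.7 and 37.0 FPKM on Day 11. Its FPKM was 4.24 times that of *Tjp1* in controls on Day 0 and 91.4 times on Day 4, but 22.8 and 3.51 times in *Tfeb* ΔIEC animals.

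**Figure D5:**
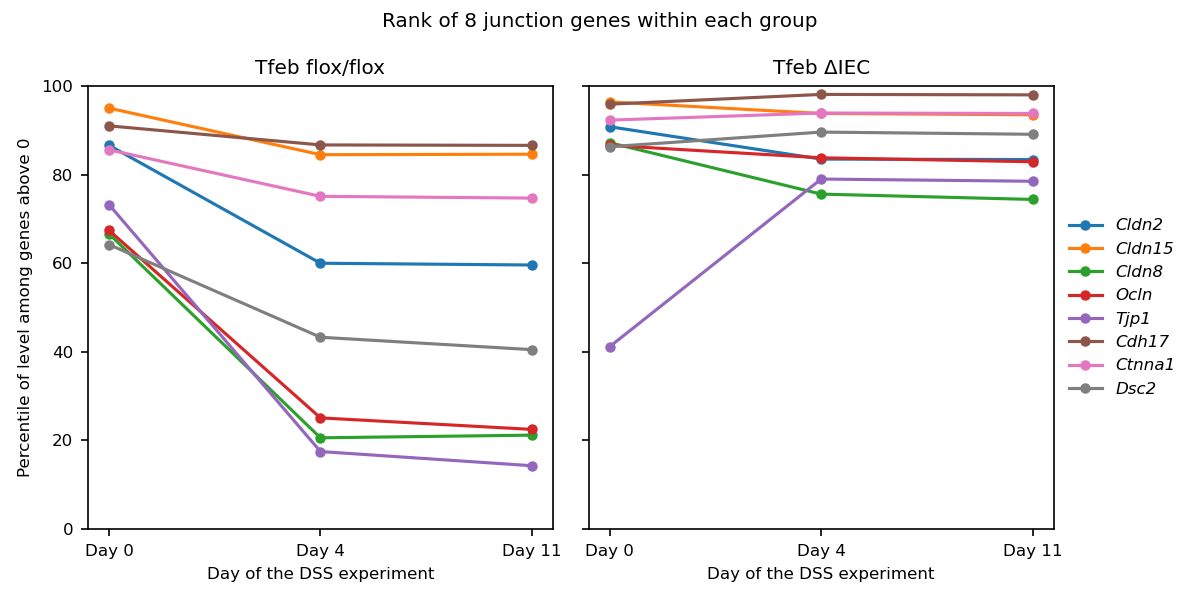
Percentile of the level of 8 junction genes among the genes above 0 in a group (y axis) on Days 0, 4 and 11 (x axis), with *Tfeb* flox/flox animals on the left and *Tfeb* ΔIEC animals on the right. In controls *Ocln*, *Cldn8* and *Tjp1* stand between 66.6 and 73.2 on Day 0 and between 17.5 and 25.1 on Day 4, and on the right *Tjp1* stands at 41.2 on Day 0 and 79.0 on Day 4.

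*Cxadr*, an adhesion molecule of the tight junction that also serves as a virus receptor, had 14.0 and 13.5 FPKM on Day 0, 3.73 and 11.7 FPKM on Day 4, and 3.66 and 11.5 FPKM on Day 11. The genotypes were level on Day 0, and the log2 fold change was 1.42 on both later days. *F11r*, which encodes the junctional adhesion molecule JAM-A, had 16.9 to 32.8 FPKM in the 6 groups and log2 fold changes from -0.35 to -0.03. *Cgn* (cingulin, a cytoplasmic linker between ZO proteins and the cytoskeleton) had 2.60 to 3.57 FPKM and log2 fold changes from -0.04 to 0.15. After subtraction of the length trend, *Tjp3* was at -0.80 and *Cgn* at -0.51 on Day 4.

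*Tjp3* and *Cgn* are the junction genes above 1 FPKM with a CACGTG within the 250 bases before a RefSeq start site, and these stretches are shown for that reason. RefSeq promoters, each with 250 bases before and 50 bases after the start, were given for 23 of the 38 genes; none is shown for *Cldn8*, *Cldn23*, *Marveld3*, *Cxadr*, *Cdh1*, *Cdh17*, *Ctnna1*, *Dsg2*, *Dsc2*, *Pkp2*, *Pkp3*, *Ppl*, *Evpl*, *Itgb4* and *Itga6*. The motif reads the same on both strands. It was found in 4 of these 23 genes (*Tjp3*, *Cgn*, *Pard6b* and *Epcam*), which is 17.4%, and in 8.09% of 27025 genes, or 7.15% of 32851 single promoters. By Day 4 call, 0 of 10 higher, 0 of 1 lower and 3 of 10 genes under 2-fold held it, and 6 of the 16 higher genes had no entry, so nothing is read from these few genes. A match describes letters and not binding. The stretch of *Tjp3*, at chr10:81291268-81291517 (minus), belongs to 1 of 2 RefSeq starts of the gene and holds the motif with its first base at position -55 from the start. That of *Cgn*, at chr3:94786483-94786732 (minus), holds it at -185. Capitals mark CACGTG, and both are written along the gene's own strand.
Tjp3: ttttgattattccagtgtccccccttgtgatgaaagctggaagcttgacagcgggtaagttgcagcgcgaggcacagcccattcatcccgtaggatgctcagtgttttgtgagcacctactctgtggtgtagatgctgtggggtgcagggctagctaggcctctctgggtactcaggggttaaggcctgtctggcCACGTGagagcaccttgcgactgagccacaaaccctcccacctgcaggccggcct
Cgn: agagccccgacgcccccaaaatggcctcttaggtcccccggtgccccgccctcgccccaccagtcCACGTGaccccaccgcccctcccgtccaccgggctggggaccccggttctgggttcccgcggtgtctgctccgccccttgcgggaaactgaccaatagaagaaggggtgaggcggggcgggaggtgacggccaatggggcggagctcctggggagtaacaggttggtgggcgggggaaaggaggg

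Of the adherens junction genes, 5 of 10 were higher on Day 0 and 6 of 10 on Days 4 and 11, and none was lower, where 13.5%, 25.6% and 26.1% of all genes were higher on the 3 days and 16.1%, 26.1% and 25.7% were lower. After subtraction of the length trend, 2 were higher on Day 0 and 4 on Day 4, when 4 of 8 claudins were, and 11.6% of all genes were higher on Day 0 and 20.3% on Day 4. The group median on the log2 scale was 1.01, 1.27 and 1.28 on the 3 days, and the Day 4 median was 0.65 after subtraction of the length trend, which brought that of the claudins from 1.58 to 0.96. *Cdh1* (E-cadherin), the core adhesion molecule of the junction, had 38.5 FPKM in controls and 109 FPKM in *Tfeb* ΔIEC animals on Day 0, 24.5 and 164 FPKM on Day 4, and 26.5 and 172 FPKM on Day 11. The *Tfeb* ΔIEC value was the higher one on each day, with log2 fold changes of 1.48, 2.70 and 2.65. *Cdh17*, a cadherin of intestinal epithelium that lacks the catenin-binding tail, had 37.6 and 97.6 FPKM on Day 0, 23.0 and 279 FPKM on Day 4, and 22.4 and 278 FPKM on Day 11. The log2 fold change was 1.35, 3.54 and 3.57, and the Day 4 ratio of the FPKM values was 12.1. Both cadherins had nearly the same FPKM in controls, where *Cdh17* was 0.977 times *Cdh1* on Day 0 and 0.940 times on Day 4. In *Tfeb* ΔIEC animals the ratio was 0.896 on Day 0 and 1.70 on Day 4. The Day 0 value of *Cdh17* was 0.97, just under 2-fold, after subtraction of the length trend.

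The catenins of the E-cadherin complex differed from each other. *Ctnna1* (α-catenin), which is joined to the cadherin through β-catenin or plakoglobin and links it to actin, had 17.0 and 40.5 FPKM on Day 0, 7.41 and 62.1 FPKM on Day 4, and 7.20 and 63.7 FPKM on Day 11. Its log2 fold change was 1.20, 2.91 and 2.98, and the Day 0 value was 0.81 after subtraction of the length trend. *Ctnnd1* (p120-catenin), which holds cadherins at the membrane, had 4.44 and 20.3 FPKM on Day 0, 2.96 and 23.6 FPKM on Day 4, and 2.68 and 23.3 FPKM on Day 11. Its log2 fold change was 1.97, 2.64 and 2.73. *Ctnnb1* (β-catenin), which is also the effector of Wnt signaling, had 15.6 and 15.4 FPKM on Day 0, 16.0 and 24.7 FPKM on Day 4, and 14.0 and 26.1 FPKM on Day 11. Its log2 fold changes were -0.01, 0.60 and 0.85, none of which reached 2-fold.

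*Jup* (plakoglobin), a relative of β-catenin shared by adherens junctions and desmosomes, had 34.8 and 39.5 FPKM on Day 0, 22.8 and 59.6 FPKM on Day 4, and 24.0 and 61.6 FPKM on Day 11. It was level on Day 0 and called higher on Days 4 and 11, with log2 fold changes of 0.18, 1.35 and 1.32. *Vcl* (vinculin), which reinforces the actin link, had 0.935 and 3.42 FPKM on Day 0, 1.08 and 3.74 FPKM on Day 4, and 1.04 and 3.78 FPKM on Day 11. Its difference was similar on the 3 days, at 1.19, 1.19 and 1.23 on the log2 scale. After subtraction of the length trend, *Jup* was at 0.59 and *Vcl* at 0.71 on Day 4, and *Vcl* was at 0.73 on Day 0, so these calls depend on that step. *Afdn* (afadin, an actin-binding partner of nectins) had 2.26 to 4.81 FPKM and log2 fold changes of 0.84, -0.08 and 0.28, while its partner *Pvrl2* (nectin-2) had 11.5 to 20.2 FPKM and log2 fold changes of 0.31, 0.46 and 0.51. *Epcam* had 1109 and 1348 FPKM on Day 0, and 1202 and 1803 FPKM on Day 4, a log2 fold change of 0.28 and 0.58.

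Of the desmosomal genes, the desmocollin differed far more than its partners. *Dsc2*, which encodes the desmosomal cadherin desmocollin-2, had 3.94 FPKM in controls and 17.9 FPKM in *Tfeb* ΔIEC animals on Day 0, 1.42 and 27.9 FPKM on Day 4, and 1.23 and 26.0 FPKM on Day 11. Its log2 fold changes were 1.93, 3.58 and 3.60. The *Tfeb* ΔIEC value was 19.7 times the control value on Day 4. The plain ratios of *Tjp1* and *Ocln* were larger but divide by control values of 0.363 and 0.565 FPKM. On the log2 scale the Day 4 value of *Dsc2* was the largest of the junction genes, with *Ocln* at 3.20 and *Tjp1* at 2.85. *Dsg2* (desmoglein-2), the other desmosomal cadherin, had 3.86 and 6.93 FPKM on Day 0, 4.07 and 8.93 FPKM on Day 4, and 3.86 and 8.83 FPKM on Day 11. Its log2 fold change was 0.70, 0.97 and 1.02, and the Day 11 call ended after subtraction of the length trend (0.44), centring on the median of all genes (0.94), comparison with genes of similar mean level (0.77) or a pseudocount of 5 (0.64). The FPKM of *Dsc2* was 1.02 times that of *Dsg2* in controls and 2.58 times in *Tfeb* ΔIEC animals on Day 0, and 0.348 and 3.12 times on Day 4. The genes lie on chromosome 18 with 498519 bases between them.

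In the desmosomal plaque, no gene differed as much as *Dsc2*. *Pkp3* (plakophilin-3) had 15.5 and 11.2 FPKM on Day 0, 8.66 and 17.3 FPKM on Day 4, and 8.04 and 19.9 FPKM on Day 11. Its log2 fold change was -0.44, 0.92 and 1.21, called on Day 11 only, and 0.46 on that day after subtraction of the length trend. *Pkp2* (plakophilin-2) had 1.20 to 3.39 FPKM and log2 fold changes from 0.28 to 0.90, and *Dsp* (desmoplakin), which carries the link to keratin, had 1.97 to 3.39 FPKM and log2 fold changes from 0.22 to 0.39. *Dsp* was thus nearly level between genotypes on each day. The envelope plakins *Ppl* and *Evpl*, typical of stratified epithelium, were under 1 FPKM in all groups, at 0.0674 to 0.188 and 0.182 to 0.485 FPKM. The hemidesmosome integrins *Itgb4* and *Itga6* had 6.43 to 12.1 and 2.43 to 5.0 FPKM and did not reach 2-fold, with log2 fold changes of 0.07 to 0.71 and 0.45 to 0.61. On Day 4 all 7 desmosomal genes that passed lay above 0, from 0.35 to 3.58, with a median of 0.87. After subtraction of the length trend the median was 0.25, *Itga6* lay below 0 at -0.08, and the others lay between 0.18 and 3.07.

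Scaling between the genotypes affects the Day 4 values. After each group was divided by its summed FPKM, the median log2 fold change of all genes was 0.75, with 42.2% of genes higher and 15.2% lower, and 25 of 34 junction genes were higher and 0 lower. Against that shifted median the junction median was 1.66. With 5 FPKM added to each value in place of 1, *Cldn12* (0.58), *Marveld2* (0.43), *Cxadr* (0.93) and *Vcl* (0.52) no longer reached 2-fold on Day 4.

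Some marker genes of cell types differed by 2-fold or more as well. Of 8 colonocyte markers, 5 were higher and 1 was lower in *Tfeb* ΔIEC animals on Day 4, against 1 higher and 3 lower on Day 0. Over all genes, 25.6% were higher and 26.1% lower on Day 4, and 13.5% and 16.1% on Day 0. The marker lists are short, and their counts were not tested against these shares. *Slc26a3*, the chloride exchanger of surface colonocytes, had 33.3 FPKM in controls and 271 FPKM in *Tfeb* ΔIEC animals on Day 4, and *Guca2a*, which encodes guanylin, had 33249 and 9202 FPKM. The whole list summed to 43168 and 28889 FPKM on Day 0 and to 58578 and 38652 FPKM on Day 4, and no marker was at 0. Of 7 goblet cell markers, 2 were higher and 4 were lower on Day 4, and the list summed to 78505 FPKM in controls and 16345 FPKM in *Tfeb* ΔIEC animals. Of 14 immune markers, 3 of the 7 that passed were higher and 0 were lower on Day 4. Of the small intestinal markers, 3 of 5 that passed were higher and 1 was lower, while the 1 stromal and 2 squamous markers that passed differed by less than 2-fold. The part of cell composition in the junction differences was not tested.

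A further 106 genes were listed by known role, among them some outside the junctions themselves, such as keratins and *Cdhr2*. On Day 4, 50 of them passed the filter, 15 (30.0%) were higher and 6 (12.0%) were lower in *Tfeb* ΔIEC animals, where 25.6% of all genes were higher and 26.1% lower, and their median on the log2 scale was 0.71. On Day 0, 7 of 56 (12.5%) were higher and 2 lower, where 13.5% of all genes were higher and 16.1% lower. On Day 11, 17 of 50 (34.0%) were higher and 5 lower, where 26.1% of all genes were higher and 25.7% lower. Transcript length was not taken into account in these counts. Of all genes between 2326 and 4472 nt, 35.9% to 37.6% were higher on Day 4. The part of length in the values of this list was not tested. The 3 highest on Day 4 among those with at least 5 FPKM in either genotype were *Krt20* (a keratin of differentiated surface cells, 101 and 931 FPKM), *Actn4* (an actin cross-linker, 22.1 and 209 FPKM) and *Cdhr2* (a protocadherin between microvilli, 7.23 and 57.4 FPKM). The 3 lowest were *Camsap3* (a binder of microtubule minus ends, 9.79 and 1.25 FPKM), *Ybx3* (a Y-box protein that binds ZO-1, 24.8 and 4.54 FPKM) and *Arhgap17* (a GTPase-activating protein of the tight junction, 5.62 and 1.29 FPKM). In the same order the log2 fold changes were 3.19, 3.18, 2.83, -2.26, -2.22 and -1.53.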

How the data were processed

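RNA-seq values of colonic epithelial cells were used from 2 *Tfeb* genotypes (flox/flox and ΔIEC) on Days 0, 4 and 11, with 2 animals per group, as the sample labels give genotype and day. The authors prepared full-length cDNA in a variation of SmartSeq2, sequenced it on a MiSeq machine, mapped it to mm10 with TopHat2 (version 2.0.14) and compared genotypes with Cuffdiff (version 2.1.1), according to the methods and the submitters' processing notes. The 3 deposited tables, 1 per day, hold the authors' FPKM per gene and genotype, pooled over both animals and scaled within that day only. Further columns hold the authors' own fold changes, test statistics, p-values and q-values, which were not used. No per-animal values were used, so no test between genotypes was made, and without read numbers no interval is given.

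A pseudocount of 1 FPKM was used for log2 fold changes, among genes with at least 1 FPKM in either genotype. Transcript length and gene coordinates are from GENCODE M21 (basic transcripts, median length per gene, counted from 1), which matched 47218 of 47632 genes. Promoters are from RefSeq (GRCm38.p6). The running median over length covered 501 genes. All 38 junction genes are named, those at 2-fold or more on any day with every value. Of the further genes listed by role, the 3 highest and 3 lowest on Day 4 with at least 5 FPKM are named. Promoter sequences were picked after the values were seen. The junction genes, marker lists and list of further genes were chosen with earlier results of these data known. Alternatives were pseudocounts of 0.1 and 5 FPKM, filters at 0 and 10 FPKM, division by the sum, centring on the median, subtraction of a running median over length, a fold of 1.5 or 4, and all claudins as denominator for claudin shares. A running median over mean level was added after the data were seen. Python 3.11.15 with numpy 2.4.6, pandas 2.3.3 and matplotlib 3.10.9 was used, and the computations were tested on simulated data.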

Additional observations from a re-analysis of the deposited data

Results flagged for a closer look

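*Tjp1* drew attention because the genotypes stood in opposite order on different days. On Day 0 the log2 fold change of *Tfeb* ΔIEC over *Tfeb* flox/flox animals was -1.65, whereas it was 2.85 on Day 4 and 2.91 on Day 11. Each value compares 2 pooled FPKM values, and the difference between days was not tested. The Day 11 values of *Tjp1* were close to those of Day 4 in both genotypes.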

How the results depend on the processing

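No paired analysis was possible because each genotype has 1 pooled value per day, and for the same reason no animal could be left out. Of 282 checks of single genes called at 2-fold on a day, Day 11 included, 249 kept direction and call and 31 lost the call with the same direction. The other 2 reversed, both for *Cldn3* against genes of similar mean level (0.19 on Day 4 and 0.33 on Day 11). The 47 checks with a pseudocount of 0.1 could not lose a call, since a smaller pseudocount enlarges every difference. Division by the sum raised the values of Days 4 and 11, so higher calls of those days could hardly be lost there. Checks of Day 11 are no independent support for those of Day 4. On Day 0, higher junction genes numbered 5 of 33 after subtraction of the length trend (11.6% of all genes) and 0 of 33 at 4-fold (2.09%), and lower ones numbered 0 with a pseudocount of 5 (6.24%), a filter at 10 FPKM (20.9%) or a threshold of 4-fold (3.35%), and 2 with centring (17.2%) or at 1.5-fold (25.6%). On Day 4, higher genes numbered 10 of 20 with a filter at 10 FPKM (26.8% of all genes), 25 of 34 after division by the sum (42.2%) and 9 of 34 at 4-fold (7.36%), and lower genes numbered 0 after division by the sum (15.2%), 1 against genes of similar mean level (26.1%) and 0 at 4-fold (10.3%). On Day 11, higher genes numbered 11 of 21 with a filter at 10 FPKM (26.6% of all genes), 25 of 34 after division by the sum (42.5%) and 9 of 34 at 4-fold (7.46%), and lower genes 0 after division by the sum (15.0%), 1 against genes of similar mean level (25.7%) and 0 at 4-fold (10.2%). Subtraction of the length trend moved the junction medians to -0.01 on Day 0, 0.48 on Day 4 and 0.51 on Day 11, and the Day 4 medians to 0.96 for claudins, 0.65 for adherens junction genes, -0.51 for other tight junction genes and 0.25 for desmosomal genes. On Day 11, 12 of 34 junction genes were higher after subtraction of the length trend (20.3% of all genes) or with a pseudocount of 5 (9.28%). Fewer genes are tested at 10 FPKM, and 4-fold is the stricter threshold by construction. For the remaining moves the cause was not tested. Of the 31 lost calls, 13 came with subtraction of the length trend and 12 with a pseudocount of 5.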
